A study of Mus musculus with 8 samples.

Results

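The replication-dependent histone genes were examined in the cortex and hippocampus of mice. They were taken as the rows of the deposited gene table whose symbols begin with Hist1h, Hist2h, Hist3h or Hist4h and whose counts over the 8 libraries came to 15 or more. The table lists 43346 genes, 70 carry such a symbol, and 51 met the count limit: 5 for the linker histone H1, 11 for H2A, 13 for H2B, 9 for H3 and 13 for H4. Of the 19 left out, 5 had no count in any library. At the limit, Hist1h2bh and Hist1h3a were kept with 15 counts each, while Hist1h3b with 14 and Hist1h2bm with 13 were not.

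The study set mice carrying green fluorescent protein (the GFP group) beside mice whose GFP bears a tail of 100 glycine-arginine dipeptides (the GFP-GR100 group). Such dipeptide chains are translated from the C9orf72 repeat expansion in frontotemporal dementia and amyotrophic lateral sclerosis. The labels describe the construct as a pAAV-EGFP plasmid, which is made for packaging into adeno-associated virus, so both groups carry the same EGFP backbone; for mouse strain, promoter and route of delivery, no entry is given in the sources used here. Each group held 4 animals aged 1.5 months, 2 females and 2 males, with 1 library per animal. Libraries are named by group and by a number given in accession order, which pairs no animals. Numbers 1 and 2 are females, and numbers 3 and 4 are males.

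In a dividing cell, new nucleosomes must be built as fast as DNA is copied, and most of the histone protein comes from compact gene clusters transcribed in S phase. H2A, H2B, H3 and H4 form the nucleosome core, around which DNA is wrapped, and H1 binds the DNA that enters and leaves it. The messages of these genes lack introns and usually end not in a poly(A) tail but just after a short stem-loop, which the protein SLBP binds and next to which U7 snRNP directs cleavage. Cells that have left the cycle can also make polyadenylated messages from some of these genes, using signals further downstream. The adult forebrain consists mostly of cells that no longer divide. Libraries here were made from total RNA with a TruSeq Stranded Total kit, so that messages without a poly(A) tail were not selected against by an oligo(dT) step.

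The 51 genes lay in the 4 known clusters: 37 in Hist1 on chromosome 13, 10 in Hist2 on chromosome 3, 3 in Hist3 on chromosome 11 and 1, Hist4h4, on chromosome 6. The stem-loop was searched for in GENCODE release M21 as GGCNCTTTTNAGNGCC on the transcript strand, in the 3′ UTR, where N stands for any base. It was found in 33 of the 50 genes that could be looked up. Anywhere in a protein-coding transcript, a wider search than that of the 3′ UTR, 45 of all 21901 genes with such transcripts held it (0.205%). Of those 45, 40 bear Hist1 to Hist4 symbols. The sequences below show how alike it is between classes, and where the H4 genes differ. Capitals mark the 16 bases of the motif, and lower-case letters the 5 bases on either side.
Hist1h1c (H1): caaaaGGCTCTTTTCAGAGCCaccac
Hist1h1e (H1): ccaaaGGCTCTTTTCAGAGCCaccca
Hist3h2a (H2A): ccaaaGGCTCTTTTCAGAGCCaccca
Hist3h2ba (H2B): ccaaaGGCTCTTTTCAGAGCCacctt
Hist1h4h (H4): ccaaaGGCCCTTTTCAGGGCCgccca
Hist1h4i (H4): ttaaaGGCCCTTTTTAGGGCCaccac
The form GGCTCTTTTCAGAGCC was present in 20 genes, 3 of H1, 7 of H2A, 6 of H2B and 4 of H3, and in none of H4. The 9 H4 genes with a match carried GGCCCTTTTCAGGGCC (7 genes) or GGCCCTTTTTAGGGCC (2 genes). In Hist1h1c the stem-loop began 24 bases after the stop codon, and the annotated transcript ran on for 840 bases past it. In Hist3h2a the annotated transcript continued for 1643 bases past the stem-loop, and in Hist1h2be for 1861. The 16 genes annotated over 300 bases past their stem-loop held 57116 of the 84240 histone counts, and the 17 that end within 300 bases held 10721. The 17 looked up without a match, Hist1h2bc and Hist2h2be among them, held 16388. Most of the 57116 counts came from Hist3h2a (23975) and Hist1h1c (21105), and counts were not scaled to length. Transcript ends are those of M21, and deposited lengths can differ. They were shorter in Hist1h1e (748 against 1930 bases) and Hist1h2ac (476 against 2482), and longer in Hist1h2be (4374 against 2506). A link between transcript end and level was not tested. Matches were taken only past the stop codon of transcripts with an annotated coding part. A gene annotated without a coding part or without a 3′ UTR could therefore show no match. Hist1h2bh, with 15 counts, was not found in M21 and was not searched. Counts per gene do not show where within a gene the reads lay, so stem-loop and polyadenylated messages cannot be told apart here.

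Upstream of their starts the H1 genes shared a feature that was rare in the other classes. RefSeq promoters (GRCm38.p6, 250 bases before to 50 after the start) were matched by symbol for 43 of the 51 genes, which gave 44 windows. AAACACA, the letters of the AC box known from H1 promoters, was found on either strand in 4 of 5 H1 promoters, in 1 of 9 of H2A and in none of 11 of H2B, 7 of H3 and 12 of H4. It was present in 7.18% of all 32851 promoters of that length. CCAAT, the letters bound by NF-Y, was present in 35 of the 44 histone promoters and in 37.4% of all promoters; it was in every H1, H2A, H2B and H3 window and in 3 of 12 of H4. TATAAA was present in 27 of 44 and in 13.6% of all. The 130 bases before the start of the 3 H1 genes that entered the test are printed because these genes carry the results that follow. Capitals mark these 3 motifs.
Hist1h1c (GRCm38.p6, chr13:23738677-23738806, plus strand): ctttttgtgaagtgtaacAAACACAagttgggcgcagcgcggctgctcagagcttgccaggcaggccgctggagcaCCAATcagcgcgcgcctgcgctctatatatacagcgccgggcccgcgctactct
Hist1h1d (GRCm38.p6, chr13:23554902-23555031, plus strand): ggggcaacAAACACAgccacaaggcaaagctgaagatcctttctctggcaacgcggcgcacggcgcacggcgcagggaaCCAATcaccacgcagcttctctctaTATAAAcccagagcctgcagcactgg
Hist1h1e (GRCm38.p6, chr13:23622559-23622688, minus strand): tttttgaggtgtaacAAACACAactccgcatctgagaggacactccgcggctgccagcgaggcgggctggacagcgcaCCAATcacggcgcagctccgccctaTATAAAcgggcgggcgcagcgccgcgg
AAACACA began at position -112 from the start in Hist1h1c, -122 in Hist1h1d and -115 in Hist1h1e, and CCAAT at -54, -51 and -52. TATAAA was found at -26 in Hist1h1d and -27 in Hist1h1e, and not in this stretch of Hist1h1c. These are matches of letters, and binding was not measured.

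Total counts ran from 65880460 to 89113010 per library, and 3 counts corresponded to between 0.0328 and 0.0495 CPM (counts scaled to a common library total, with TMM factors). Markers of the labelled tissue were present: Slc17a7, the vesicular glutamate transporter of cortical excitatory neurons, stood at 1121 ± 103 CPM in GFP and 1050 ± 216 CPM in GFP-GR100 (SD, n = 4), and Prox1, a marker of dentate granule cells, at 23.7 ± 5.40 and 26.3 ± 2.13 CPM (SD, n = 4). The dissected tissue weighed 111.4 to 126.6 mg in GFP and 71.9 to 85.1 mg in GFP-GR100 animals, per the labels. In bulk tissue, fewer cells of a type and less RNA per cell cannot be told apart.

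Yam1, a non-coding locus on chromosome 17 (39846958 to 39848788 on mm10, as deposited), took a share of the counts that differed several-fold between libraries of the same group. The share was followed because total RNA libraries hold ribosomal RNA. Whether the reads counted at Yam1 come from ribosomal RNA was not tested. Yam1 held 6.94% in GFP 1 and 3.97% in GFP 2, both female, and 2.31% in GFP 3 and 2.11% in GFP 4, both male. Among GFP-GR100 animals the females numbered 1 and 2 had 1.87% and 1.58%, and the males numbered 3 and 4 had 5.20% and 5.82%. The share was thus higher in females than in males among GFP animals and lower among GFP-GR100 animals, and the groups overlapped. The widest 95% Wilson interval, that of GFP 1, ran from 6.93% to 6.95% and covers counting error only. The 51 histone genes together held far less, 0.00958% to 0.0169% of counts, and their share was lowest in GFP 1 and GFP 2 and highest in GFP-GR100 4. A fit that takes the Yam1 share as a covariate is given beside the calls that it moves. The share was high in GFP females and GFP-GR100 males and low in the other libraries. With sex and group in the model, this covariate therefore runs close to their product, and the fit cannot separate the share from that product.

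**Figure D1:**
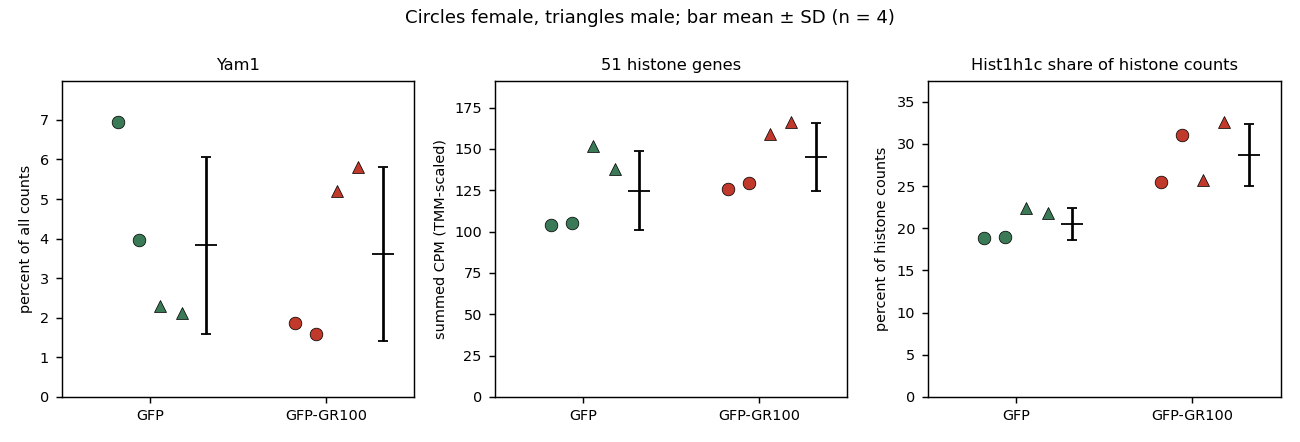
Percent of all counts at Yam1 (left), summed level of the 51 histone genes in CPM (middle) and percent of histone counts at Hist1h1c (right), 1 point per library (circles female, triangles male), with the group mean and SD (n = 4) as a bar. Yam1 shares run from 1.58% to 6.94% and overlap between groups, while the Hist1h1c share lies between 18.8% and 22.4% in GFP and between 25.5% and 32.6% in GFP-GR100.

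Histone messages in this tissue came from a handful of genes. Hist3h2a (H2A) held 28.5% of the histone counts, Hist1h1c (H1) 25.1%, Hist1h2bc (H2B) 12%, Hist3h2ba (H2B) 10.7%, Hist2h2be (H2B) 5.54% and Hist1h2be (H2B) 5.22%, together 86.9%. By class, H2B held 35.1% of histone counts, H2A 29.1%, H1 26.7%, H3 4.58% and H4 4.51%. Per length, as deposited RPKM (reads scaled to gene length and to the library total), 4 genes stood apart: Hist3h2ba with a mean of 23.4 RPKM over the 8 libraries, Hist1h2bc with 21.9, Hist1h1c with 21.8 and Hist3h2a with 17.9. Their ranges over libraries overlapped, from 18.5 to 31.0 RPKM in Hist3h2ba, 14.8 to 28.0 in Hist1h2bc, 11.5 to 35.3 in Hist1h1c and 14.0 to 21 in Hist3h2a, so that the 4 have no full order. Within libraries part of the order held: Hist3h2a was below both Hist3h2ba and Hist1h2bc in all 8. Hist3h2ba was above Hist1h2bc and above Hist1h1c in 6 of 8 libraries each, and Hist1h1c was above Hist3h2a in 5 of 8. The next gene, Hist2h2be, had a mean of 2.86 RPKM, with 2.42 to 3.49 over libraries, below every library's value of the leading 4.

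H1 and H2A were each led by 1 gene far above the rest and H2B by a pair, while the leading genes of H3 and of H4 lay close to the next. Within H1, Hist1h1c (H1.2) was followed by Hist1h1e (H1.4) at 2.24 RPKM, Hist1h1d (H1.3) at 0.530, Hist1h1b (H1.5) at 0.170 and Hist1h1a (H1.1) at 0.116. Within H2A, the genes other than Hist3h2a had means of at most 0.342 RPKM, that of Hist1h2ac. Within H2B, Hist3h2ba and Hist1h2bc were followed by Hist2h2be at 2.86 RPKM and Hist1h2be at 1.61. The H3 class was led by Hist2h3c1 at 2.06 RPKM and Hist2h3c2 at 1.74, and the H4 class by Hist1h4i at 2.74 and Hist1h4h at 2.13, with ranges that met. The median over the 51 genes was 0.276 RPKM.

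H2A and H2B genes often sit head to head with a shared region between their starts, and 6 such pairs were found among these genes. Members of a pair could stand far apart in level. Hist1h2bc had 21.9 RPKM and its partner Hist1h2ac, 251 bases away, 0.342 RPKM. Hist3h2a had 17.9 RPKM and the pseudogene Hist3h2bb-ps, 173 bases away, 1.18 RPKM. Hist2h2be had 2.86 RPKM against 0.336 RPKM in Hist2h2ac, 239 bases away. The pair Hist1h2ak and Hist1h2bn, 296 bases apart, was low on both sides, with 0.276 and 0.190 RPKM. The starts of such pairs are close, and whether strand was used in counting is not given in the sources used here.

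Because the coding parts of histone genes are so alike, counts can be split between copies. In the shares that follow, another gene is any other gene, histone or not, on either strand. The share of 50-base words of the longest M21 transcript that also occur in another gene was 50% or more in 21 of the genes, which held 4729 counts. It was under 10% in 7 genes, which held 27179 counts; Hist1h1c was among them with 8.54%, and Hist1h1d with 2.25%. It was 22.1% in Hist3h2ba, 30.6% in Hist1h2bc, 31.5% in Hist3h2a, 45.8% in Hist1h4h and 100% in Hist2h3c1. How reads that map to several places were counted is not given in the sources used here, so that values of genes at the upper end are uncertain.

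**Figure D2:**
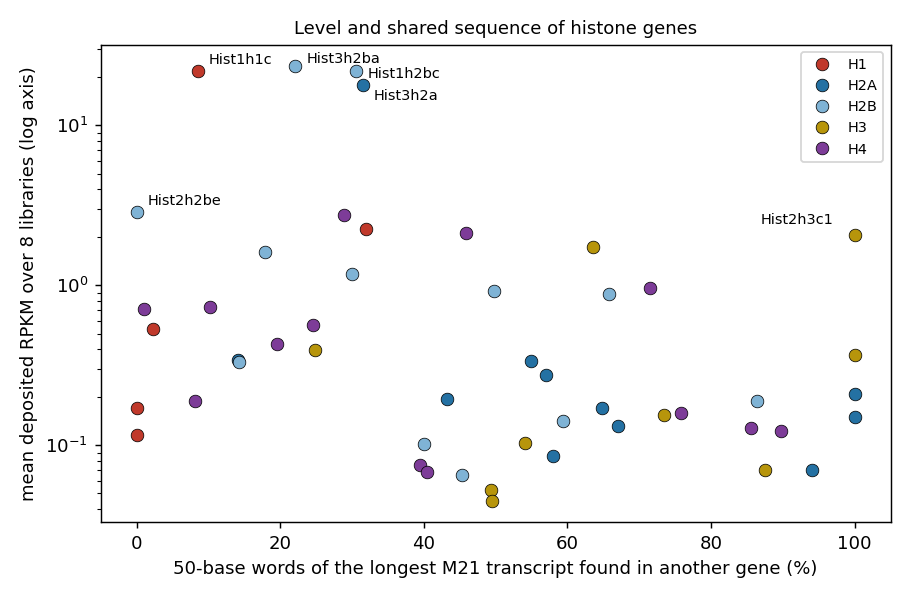
Mean deposited RPKM over the 8 libraries (log axis) against the percent of 50-base words of a gene's longest M21 transcript that occur in another gene, 1 point per histone gene found in M21, coloured by class. Hist1h1c combines a high level (21.8 RPKM) with little shared sequence (8.54%), while Hist2h3c1 (2.06 RPKM) is wholly shared (100%). Counting only other histone genes, the share of Hist2h3c1 is 34.7%.

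The main comparison asked which histone genes change with the repeat protein. Hist1h1c, which encodes the linker histone H1.2, rose 1.65-fold in GFP-GR100, and no other histone gene passed the test. Of the 51 genes, 26 had enough counts to be tested: 3 of H1, 3 of H2A, 8 of H2B, 4 of H3 and 8 of H4. The other 25 had at most 77 counts over all libraries and at most 0.396 CPM in any. By edgeR's quasi-likelihood test with sex in the model, 1 of 26 was higher and 0 were lower at a Benjamini-Hochberg adjusted p under 0.05, against 2.19% higher and 0.324% lower among all 20987 genes tested. At an unadjusted p under 0.05 there were 4 higher (Hist1h1c, Hist1h1d, Hist1h4h and Hist1h4i) and 0 lower, where all genes gave 8.23% and 7.37%. DESeq2 called 3 of the 26 higher and 0 lower, against 3.45% and 0.953% of all genes. The fit with the Yam1 share as covariate also called 3 higher (Hist1h1c, Hist1h1d and Hist1h4h) and 0 lower, against 3.33% and 1.28% of all genes. The median log2 fold change was 0.092 over the 26 genes and -0.024 over all genes tested, and 17 of 26 lay above 0, against 45.4% of all genes.

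The classes differed in their values. The median log2 fold change was 0.72 over the 3 tested H1 genes, all above 0, and 0.49 over the 8 H4 genes, of which 6 were above 0. It was 0.00 over the 3 H2A genes, 0.02 over the 8 H2B genes and -0.07 over the 4 H3 genes. With 3 genes tested, the H1 median is the value of Hist1h1c itself. No test compares the classes with one another. Among the 26 tested genes, groups did not overlap in 1, Hist1h1d, which was higher in GFP-GR100 (5.03% of all genes tested), and in 0 that were lower (3.03%). Among the 25 genes too low to be tested, they did not overlap in 2. Hist1h4n had 0 to 4 counts per library in GFP and 5 to 7 in GFP-GR100, and was higher in GFP-GR100. Hist2h2aa2 had 6 to 10 counts in GFP and 4 to 7 in GFP-GR100, and its CPM were lower in GFP-GR100. No share was computed over all genes below the filter, so these 2 have no background to be set against.

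**Figure D3:**
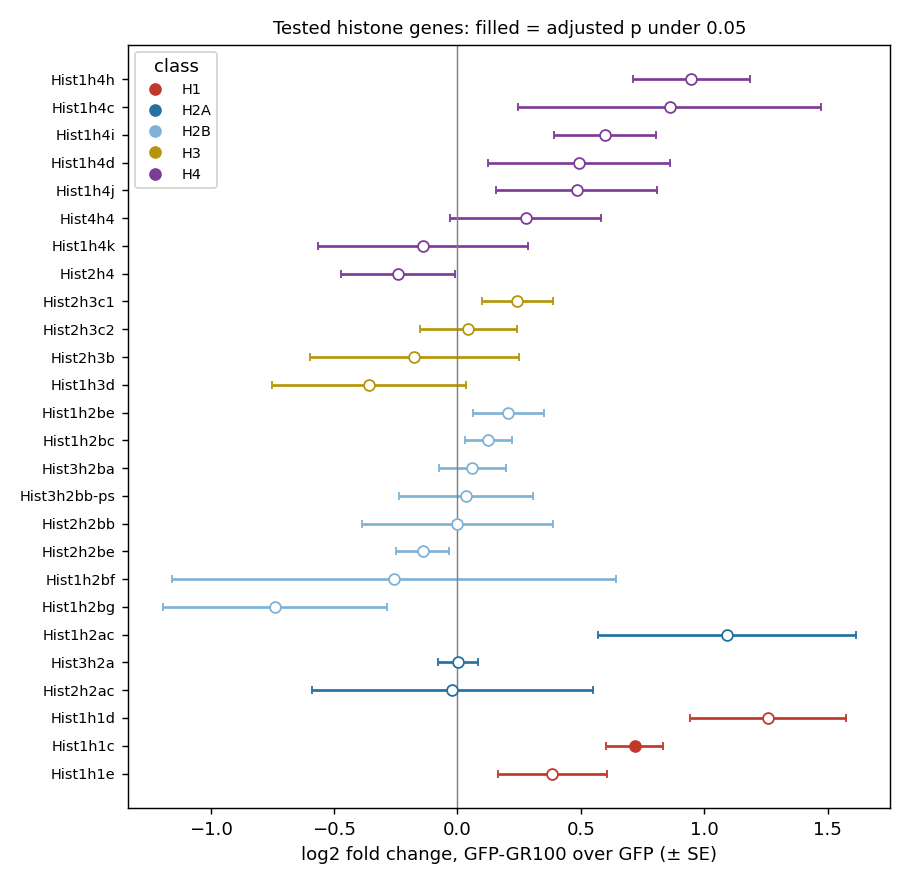
Log2 fold change of the 26 tested histone genes, GFP-GR100 over GFP, with its standard error, grouped and coloured by class. Only Hist1h1c (0.72) is filled as passing an adjusted p under 0.05; the H1 points and most H4 points lie to the right of 0, and H2B and H3 points lie on both sides.

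Hist1h1c (chr13:23738808-23740367 on mm10, as deposited) stood at 19.6, 19.9, 34.1 and 30.0 CPM in GFP 1 to 4 and at 32.1, 40.2, 40.8 and 54.1 CPM in GFP-GR100 1 to 4. Within each sex both GFP-GR100 libraries were above both GFP libraries, but the GFP male at 34.1 CPM exceeded the GFP-GR100 female at 32.1, so the groups overlapped. Means were 25.9 ± 7.31 and 41.8 ± 9.13 CPM (SD, n = 4 each), and the log2 fold change was 0.72 (SE 0.12, edgeR adjusted p = 0.0042). Within females it was 0.87 (edgeR adjusted p = 0.019) and within males 0.57 (edgeR adjusted p = 0.034); the difference between the sexes was -0.31 (edgeR adjusted p = 0.488). Hist1h1c ranked 187 of 20987 genes by p. Its call was kept in every alternative but 1: without sex in the model the log2 fold change was 0.69 and the edgeR adjusted p 0.174, and over all 18 alternatives the adjusted p ran from 1.5e-06 to 0.174. As a share of histone counts it took 18.8%, 18.9%, 22.4% and 21.8% in the GFP libraries and 25.5%, 31.1%, 25.7% and 32.6% in the GFP-GR100 libraries, which do not overlap.

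The other linker histones were lower in level. Hist1h1d (H1.3) stood at 0.165, 0.216, 0.300 and 0.236 CPM in GFP 1 to 4 and 0.339, 0.596, 0.659 and 0.614 CPM in GFP-GR100 1 to 4. Every GFP-GR100 library was above every GFP library. The log2 fold change was 1.26 (SE 0.32, edgeR adjusted p = 0.061), and the gene passed with raw library totals (0.043), DESeq2 (0.036), limma-trend (0.014) and the Yam1 share as covariate (0.044), each an adjusted p. Hist1h1d rests on 243 counts in all, and its deposited length is 744 bases where its longest M21 transcript has 7425. Hist1h1e (H1.4) stood at 1.85, 1.36, 0.999 and 1.61 CPM in GFP and 1.57, 1.76, 1.94 and 2.34 CPM in GFP-GR100, overlapping, with a log2 fold change of 0.38 (SE 0.22, edgeR adjusted p = 0.414). That value was 0.22 without GFP 3 and 0.16 without both GFP 3 and GFP-GR100 4. Hist1h1b and Hist1h1a, with at most 0.321 and 0.175 CPM, were not tested.

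Among H2A genes, Hist3h2a had nearly the same level in both groups. It stood at 32.6, 34.4, 44.7 and 41.8 CPM in GFP and 36.5, 32.3, 44.9 and 39.4 CPM in GFP-GR100. Males were above females in both groups, and the groups covered the same range. The log2 fold change was 0.0024 (SE 0.083, edgeR adjusted p = 0.992), and it changed sign between alternatives. Hist1h2ac stood at 0.0495, 0.0270, 0.178 and 0.186 CPM in GFP and 0.285, 0.139, 0.207 and 0.219 CPM in GFP-GR100, on 104 counts in all, with a log2 fold change of 1.09 (SE 0.52, edgeR adjusted p = 0.337). The GFP females were lowest, and the remaining libraries overlapped.

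Among H2B genes none passed. Hist1h2bc stood at 11.8, 12.3, 20.4 and 17.3 CPM in GFP and 14.8, 12.9, 19.5 and 19.5 CPM in GFP-GR100 (log2 fold change 0.12, SE 0.094, edgeR adjusted p = 0.535). Its males were above its females in both groups, and the groups overlapped. Hist3h2ba stood at 12.3, 12.3, 18.7 and 13.1 CPM in GFP and 13.1, 13.5, 19.1 and 13.0 CPM in GFP-GR100 (log2 fold change 0.06, SE 0.14, edgeR adjusted p = 0.855). In each group the male numbered 3 stood above the other libraries.

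Hist1h2bg had the largest fall in value among the tested genes. It stood at 0.165, 0.203, 0.932 and 1.08 CPM in GFP and 0.307, 0.190, 0.207 and 0.424 CPM in GFP-GR100, so that only the GFP males were high. Over all libraries the log2 fold change was -0.74 (SE 0.45, edgeR adjusted p = 0.443), and leaving out single libraries moved it from -1.07 (without GFP-GR100 1) to -0.30 (without GFP-GR100 3). Within males it was -1.68 (edgeR adjusted p = 0.036) and within females 0.43 (edgeR adjusted p = 0.818). The difference between the sexes was -2.11 and did not pass (unadjusted p = 0.0081, edgeR adjusted p = 0.159). Within males 1 histone gene was called higher (Hist1h1c) and 1 lower (Hist1h2bg), with 5.56% and 3.78% of all genes, and within females 1 was higher (Hist1h1c) and 0 lower, with 0.829% and 0.0524% of all genes.

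Hist1h2bf showed how far a low H2B gene can move by 1 library. It stood at 0.495, 0.581, 0.0666 and 0.658 CPM in GFP and 0.449, 0.444, 0.594 and 0 CPM in GFP-GR100, with a log2 fold change of -0.26 (SE 0.90, edgeR adjusted p = 0.909). GFP 3 and GFP-GR100 4 were far below the rest of their groups. Leaving out GFP-GR100 3 gave -1.16 and leaving out GFP 3 gave -0.59, whereas the value was 0.14 when GFP-GR100 4 was dropped and 0.47 when GFP 4 was. Hist2h2be was the 1 tested gene with GFP-GR100 below GFP within both sexes (7.59% of all genes); it stood at 7.37, 7.01, 9.06 and 8.04 CPM in GFP and 6.15, 6.99, 7.75 and 7.66 CPM in GFP-GR100, with a log2 fold change of -0.14 (SE 0.11, edgeR adjusted p = 0.538). GFP-GR100 was above GFP within both sexes in 6 of 26 genes (7.55% of all genes): Hist1h1c, Hist1h1d, Hist1h2ac, Hist1h4h, Hist1h4i and Hist1h4j.

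The core histone H3 genes gave no call. Hist2h3c1 stood at 2.95, 2.47, 4.0 and 4.39 CPM in GFP and 3.62, 3.49, 3.99 and 4.98 CPM in GFP-GR100 (log2 fold change 0.24, SE 0.14, edgeR adjusted p = 0.430). Its GFP females were lowest, and the groups overlapped. Hist2h3c2 stood at 1.12, 1.57, 2.36 and 2.01 CPM in GFP and 1.86, 1.57, 1.69 and 1.99 CPM in GFP-GR100 (log2 fold change 0.04, SE 0.20, edgeR adjusted p = 0.930). Hist1h3d stood at 0.379, 0.189, 0.244 and 0.199 CPM in GFP and 0.208, 0.178, 0.258 and 0.132 CPM in GFP-GR100 (log2 fold change -0.36, SE 0.39, edgeR adjusted p = 0.676), and leaving out single libraries moved that fold change from -0.62 (without GFP-GR100 3) to -0.095 (without GFP 1). All 4 GFP-GR100 values of Hist2h3c2 lay within the GFP range, and in Hist1h3d the groups overlapped as well.

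Among H4 genes, Hist1h4h came closest to the threshold. It stood at 0.544, 0.338, 0.821 and 1.08 CPM in GFP and 0.876, 0.951, 2.05 and 1.37 CPM in GFP-GR100. Within each sex the GFP-GR100 libraries were higher, and between sexes the groups overlapped. The log2 fold change was 0.95 (SE 0.24, edgeR adjusted p = 0.059); it passed in 7 alternatives, with adjusted p between 0.015 and 0.045, among them DESeq2 (0.017), limma-trend (0.015), the Yam1 share as covariate (0.045) and the fit without GFP-GR100 4 (0.029). Hist1h4i stood at 0.808, 1.07, 2.48 and 2.21 CPM in GFP and 1.89, 2.03, 2.49 and 2.82 CPM in GFP-GR100, with a log2 fold change of 0.60 (SE 0.21, edgeR adjusted p = 0.186). The GFP females were lowest, and the other libraries lay between 1.89 and 2.82 CPM. Within females the log2 fold change was 1.06 and within males 0.18, a difference with an edgeR adjusted p of 0.221.

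**Figure D4:**
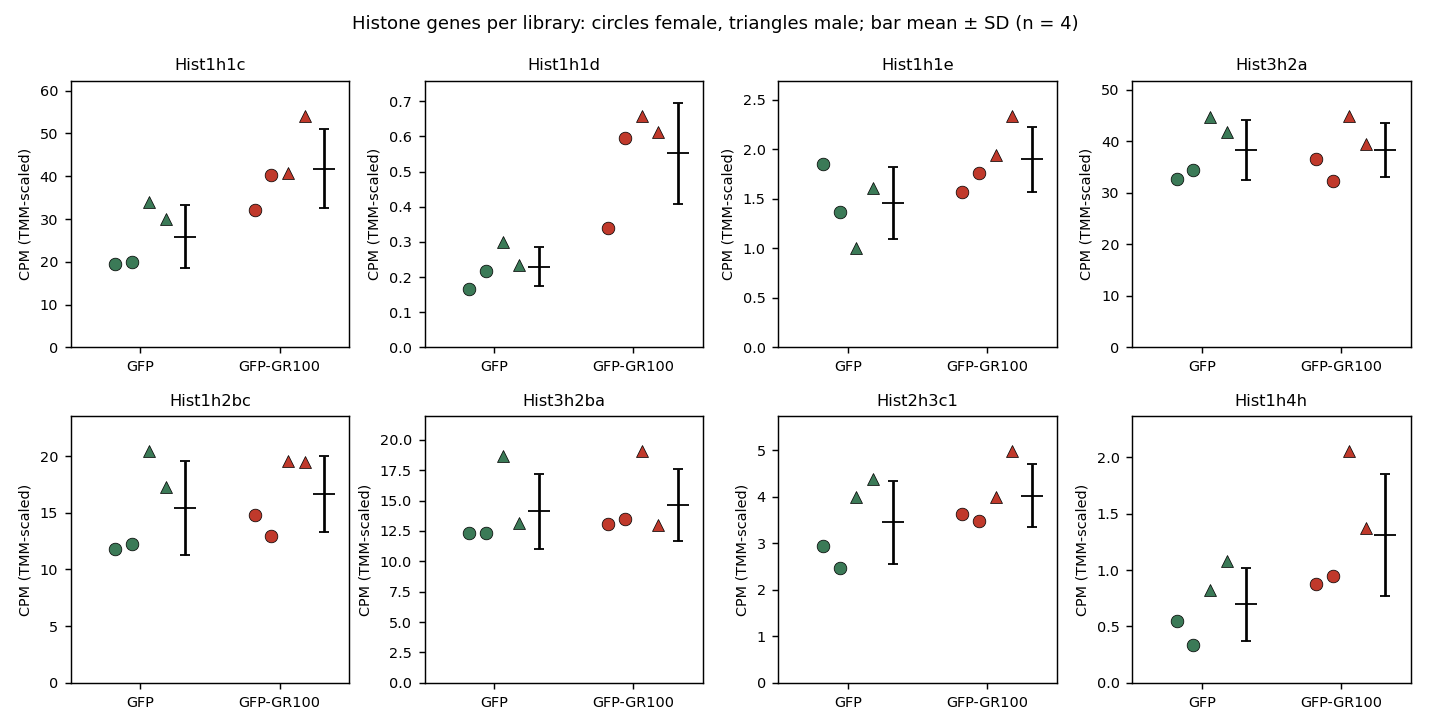
Level in CPM of 8 histone genes in each library, GFP left and GFP-GR100 right (circles female, triangles male), with the group mean and SD (n = 4) as a bar. Hist1h1c and Hist1h4h are higher in GFP-GR100 within each sex, every GFP-GR100 value of Hist1h1d is above every GFP value, and the groups cover the same range in Hist3h2a and Hist3h2ba.

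Summed over its genes, each class can be set beside the others in every library. H1 genes summed to 21.7, 21.7, 35.5 and 32 CPM in GFP and 34.2, 42.7, 43.5 and 57.6 CPM in GFP-GR100, with means of 27.7 ± 7.08 and 44.5 ± 9.69 (SD, n = 4 each), a ratio of 1.60. Only the GFP-GR100 female at 34.2 CPM fell below a GFP library. Without Hist1h1c, the remaining 4 H1 genes had means of 1.84 ± 0.317 and 2.70 ± 0.566 CPM (SD, n = 4 each), a ratio of 1.46. H4 genes summed to 5.0, 4.11, 5.66 and 6.39 CPM in GFP and 6.07, 6.0, 7.65 and 8.07 CPM in GFP-GR100, with means of 5.29 ± 0.972 and 6.94 ± 1.07 (SD, n = 4 each), a ratio of 1.31. H4 was higher in GFP-GR100 within each sex, and across sexes the groups overlapped.

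The other core classes differed by less than the spread between libraries. H2A means were 39.3 ± 5.74 and 39.2 ± 5.46 CPM (SD, n = 4 each), a ratio of 0.998. H2B means were 46.4 ± 9.59 and 48.0 ± 6.85 CPM (SD, n = 4 each), a ratio of 1.03, and H3 means 5.98 ± 1.04 and 6.39 ± 0.845 CPM (SD, n = 4 each), a ratio of 1.07. All 51 genes together had means of 124.7 ± 24.1 and 145.0 ± 20.3 CPM (SD, n = 4 each), a ratio of 1.16, and 98.8 ± 16.7 and 103.2 ± 13.9 CPM (SD, n = 4 each) without Hist1h1c, a ratio of 1.04. As a share of histone counts, H1 took 20.9%, 20.7%, 23.3% and 23.2% in GFP and 27.1%, 33.0%, 27.4% and 34.7% in GFP-GR100, which do not overlap, whereas H4 stayed between 3.72% and 4.86% in all 8 libraries. Hist1h1c alone held 21105 of the 22494 H1 counts, so the H1 share mostly follows that gene. No p is given for sums over these genes.

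**Figure D5:**
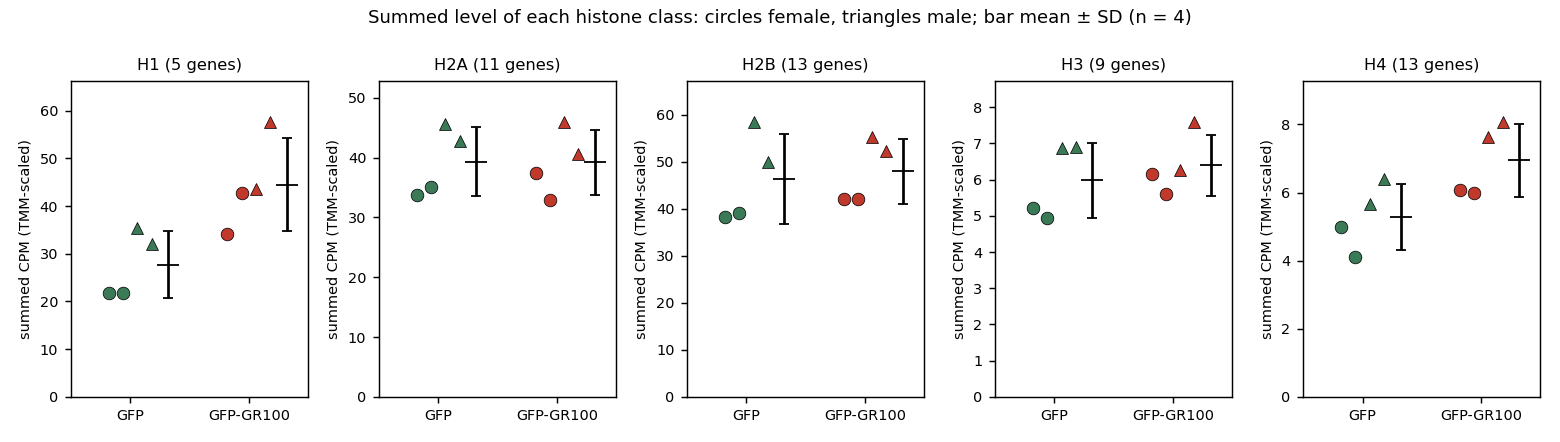
Summed CPM of the genes of each histone class per library, GFP left and GFP-GR100 right (circles female, triangles male), with the group mean and SD (n = 4) as a bar. The H1 mean is 1.60 times and the H4 mean 1.31 times as high in GFP-GR100, while H2A, H2B and H3 ratios lie between 0.998 and 1.07 and both males stand above both females in every class and group.

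Levels of 5 histone genes also differed between the sexes. In the fit for males against females, a comparison chosen after seeing the data, 5 of 26 genes were higher in males and 0 lower by edgeR's quasi-likelihood test, against 1.84% higher and 2.34% lower among all genes. They were Hist3h2a (log2 difference 0.33), Hist1h1c (0.55), Hist1h2bc (0.57), Hist1h4i (0.86) and Hist1h4h (1.00), with edgeR adjusted p between 0.040 and 0.048. At an unadjusted p under 0.05, 10 genes were higher in males and 0 lower, where all genes gave 12.3% and 12.9%. In 11 of 26 genes both males stood above both females in each group (11.4% of all genes), and in 0 below (11% of all genes). The median male over female log2 difference was 0.36 over the histone genes and 0.02 over all genes tested. Each title also carries a number whose meaning is not given in the sources used here. In GFP the numbers of the females lie far below those of the males, and in GFP-GR100 they interleave. Within GFP, sex and whatever those numbers follow cannot be told apart. The calls sit at the threshold: leaving out single libraries gave between 0 and 6 of them (0.0235% to 4.53% of all genes), with 0 called without GFP 1, GFP 2, GFP 3, GFP-GR100 2 or GFP-GR100 3, 1 without GFP-GR100 1 and 2 without GFP 4. The Yam1 share as covariate gave 8 (6.39% of all genes), and raw library totals gave 3 (0.758%). When the group effect was compared between females and males, edgeR called 0 histone genes (0.0524% of all genes), with 4 at an unadjusted p under 0.05 (16.4% of all genes).

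The genes that handle histones and those of the cell cycle gave no call in either direction by edgeR. Of all 20987 genes tested, 2.19% were called higher and 0.324% lower, so lists of this length would hold few calls or none. Among 11 tested genes for variant histones, which are also made outside S phase, 0 were higher and 0 lower, and the median log2 fold change was -0.06; H1f0, the linker histone of resting cells, had 0.18 (SE 0.084, edgeR adjusted p = 0.334). Among 31 genes of histone message processing and decay 0 were called, with a median of -0.08. Of these Slbp, the stem-loop binding protein, had 0.06 (edgeR adjusted p = 0.787), and Eri1, an exonuclease that trims the stem-loop, had -0.31 (SE 0.094, edgeR adjusted p = 0.123). Among 26 histone chaperone genes 0 were called, with a median of -0.09; Nap1l4, a chaperone of H2A and H2B, had -0.17 (SE 0.076, edgeR adjusted p = 0.305).

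DNA replication genes gave 0 calls of 48, with a median log2 fold change of -0.02, and mitosis genes 0 of 23, with a median of -0.18. With 2.19% higher and 0.324% lower among all genes, 0 calls is near the background for both lists. Cdc6, which loads the replicative helicase, stood at 0.594, 0.608, 0.888 and 0.720 CPM in GFP and 0.394, 0.342, 0.336 and 0.248 CPM in GFP-GR100. Every GFP-GR100 library was below every GFP library, and the log2 fold change was -1.07 (SE 0.29, edgeR adjusted p = 0.081); it passed as lower with DESeq2 (adjusted p = 0.049) and with the Yam1 share as covariate (adjusted p = 0.038). Ccnb1, the mitotic cyclin B1, had means of 1.18 ± 0.250 and 0.695 ± 0.109 CPM (SD, n = 4 each), a log2 fold change of -0.76 (SE 0.24, edgeR adjusted p = 0.143). Mki67, a marker of dividing cells, had 3.55 ± 0.726 and 3.2 ± 0.690 CPM (SD, n = 4 each). At an unadjusted p under 0.05, edgeR gave 1 replication gene higher and 4 lower, 0 mitosis genes higher and 4 lower, 0 processing genes higher and 2 lower, and 0 chaperone genes higher and 2 lower. Variant histones gave 0 in either direction. All genes gave 8.23% higher and 7.37% lower, so 4 of 48 replication genes lower is near the background. The 4 of 23 mitosis genes lower are a larger share than that of all genes, and the list as a whole was not tested.

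Some cell types' markers moved with the groups. Of 9 microglia markers 7 were higher in GFP-GR100 by edgeR and 0 lower, where 2.19% of all genes were called higher and 0.324% lower. Their summed levels were 380 to 522 CPM in GFP and 701 to 799 CPM in GFP-GR100. Astrocyte markers gave 1 higher of 7, oligodendrocyte precursor markers 1 lower of 7 and choroid plexus markers 1 lower of 6, the last with summed levels of 126 to 360 CPM in GFP and 31.4 to 86.6 CPM in GFP-GR100. Cortical excitatory neuron, hippocampus, immature neuron, endothelial and red blood cell markers gave 0 calls, and no marker in any of these lists was at 0. The part of these cell types in the Hist1h1c, H1 and H4 values was not tested.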

How the data were processed

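RNA from cortex and hippocampus of 8 mice, 4 per group, was sequenced. Per the submitters' processing notes, TopHat2 2.1.0, the mm10 build, CASAVA, DESeq2 and R 3.4.1 were used, without stating which step each served. No gene counter, annotation release or strand setting is given in the sources used here. Per the file headers, the authors deposited whole-number counts per gene and RPKM values in the same table. The deposited RPKM were found to be scaled to each library's summed gene counts, within a ratio of 1.00028.

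Counts were fitted over the whole table with edgeR 4.0.16 in R 4.3.3: filterByExpr (minimum count 10, minimum total 15), TMM scaling, the robust quasi-likelihood test with sex and group, and Benjamini-Hochberg adjustment over all 20987 genes tested, with a threshold of 0.05. "Called" means past it. A positive log2 fold change means a higher level in GFP-GR100, and its standard error (SE) was derived from the F statistic. Adding a sex by group term gave effects within each sex and their difference. Class levels are sums of TMM-scaled CPM, with no test.

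Genes were named by rule: in each class, called genes, the 2 with the highest mean RPKM and the smallest p; the 3 largest rises and falls; and in each list the called genes or that with the smallest p. Slbp, Mki67, Hist2h2be and the marker genes were named beyond it, after their values were seen. The members and lists were chosen with earlier results of these data known. Alternatives were median-of-ratios factors, raw library totals, counts summing to at least 15, a mean of at least 1 CPM, DESeq2 1.42.0, limma-voom and limma-trend (limma 3.58.1, log2(RPKM + 0.1)), no sex covariate, the log2 Yam1 share as covariate, leaving out GFP 3 with GFP-GR100 4, and leaving out each library. The male against female comparison was added after seeing the data. Of the fits, only the main edgeR model was tried on simulated counts, and its outcome there is not reported here. The titles give each library as a separate animal; p-values measure the spread between these animals.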

Additional observations from a re-analysis of the deposited data

Results flagged for a closer look

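Hist3h2ba, an H2B gene, had a library far from the others in each group. GFP 3 stood at 18.7 CPM against 12.3 to 13.1 CPM in the other GFP libraries, and GFP-GR100 3 at 19.1 CPM against 13.0 to 13.5 CPM in the other GFP-GR100 libraries. Of 40 groups of 4 libraries examined for such a gap, 2 showed one, and chance gives about 1 in 20.

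In 3 histone genes and at Yam1, both libraries of each sex moved one way in females and the opposite way in males. Hist2h2ac differed by -0.154 CPM (GFP-GR100 minus GFP) in females and 0.112 CPM in males. Hist2h3c2 differed by 0.373 CPM in females and -0.348 CPM in males, and Hist2h3b by -0.0979 and 0.0536 CPM. For these genes edgeR's adjusted p for the difference between the sexes was 0.243, 0.426 and 0.459. The Yam1 share differed by -3.73 percentage points in females and 3.30 in males, a difference that was not tested. In all, 27 values were examined for such opposite shifts. How often they occur among all genes was not counted, so the 3 genes cannot be read as more than the background.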

How the results depend on the processing

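The count of 1 histone gene called higher in GFP-GR100 became 3 with raw library totals, DESeq2, limma-trend or the Yam1 share as covariate, 2 with a mean of at least 1 CPM or without GFP 3 and GFP-GR100 4, and 0 without the sex covariate. The share of all genes called higher, 2.19% in the fit reported, moved too, to 2.79%, 3.45%, 2.45%, 3.33%, 2.68%, 2.76% and 1.8% in the order named. Leaving out single libraries gave 1 to 2 (2 without GFP-GR100 4). The count called lower stayed 0 in all 18 alternatives. Replication genes called lower were 1 (Cdc6) with DESeq2 or the Yam1 share as covariate, variant histones called higher were 1 (H1fx) without GFP 3 and GFP-GR100 4, and chaperone genes called lower were 0 to 1 when single libraries were left out (1, Ipo4, without GFP 1). The 5 genes higher in males became 3 with raw library totals, 8 with the Yam1 share, 2 without GFP 3 and GFP-GR100 4, and 0 to 6 without single libraries. Log2 fold changes near 0 changed sign. Hist3h2a had -0.00022 with limma-voom, -0.0023 without the sex covariate, -0.0013 with the Yam1 share and -0.030 to 0.054 without single libraries. Without single libraries Hist1h2bc had 0.094 to 0.22, Hist1h2ac 0.75 to 1.38, Hist1h2bf -1.16 to 0.47, Hist2h3c2 -0.10 to 0.17 and Hist3h2ba -0.051 to 0.20. The cause was not tested. The log2 ratios of the summed classes moved by less than the spread between replicates in all 12 alternatives run for them. That spread was taken within groups over both sexes. Ratios near 0 changed sign, with -0.086 to 0.077 for H2A, -0.035 to 0.18 for H2B and -0.093 to 0.17 for H3. H1 ran from 0.53 to 0.82 and H4 from 0.29 to 0.58. Raw library totals shifted the median of all genes by 0.066 on the log2 scale. No paired analysis was possible because the labels give the animals no replicate numbers that groups share. At 3 counts, 0.0328 to 0.0495 CPM, depth limits the 25 genes not tested, and sequence shared with other genes limits many of the rest.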
